A study of Bos taurus with 12 samples.

Results

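Endometrium collected 2 days after povidone-iodine was placed in the uterus was compared with endometrium collected on day 0 from the same 3 cows (Bos taurus). The comparison uses 6 of the 12 arrays of the study, 3 of day 0 and 3 of day 2, and covers every non-control probe that stood well above background on at least 3 of the 12 arrays: 33522 of 43600 probes, which represent 12603 named genes. All cows are labelled as fertile and all received the antiseptic, so the day 0 biopsies are the only baseline and no untreated cow is among the samples. Forceps biopsies came from the uterine horns in turn, on days 0, 2, 7 and 14. The labels give neither the horn of a biopsy nor the stage of the oestrous cycle, nor whether the day 0 biopsy came before the antiseptic. What the antiseptic, the passing of time, the cycle and the earlier biopsy each add to a difference therefore cannot be told apart.

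Povidone-iodine is an antiseptic that releases free iodine, which oxidises proteins and lipids of microbes and also of the mucosa it touches. It is infused into the bovine uterus against endometritis. The endometrium consists of a surface epithelium with some ciliated cells, tubular glands, a fibroblast-rich stroma with vessels and resident leukocytes, and underneath it the smooth muscle of the myometrium. After injury such a mucosa typically releases chemokines that draw neutrophils and then monocytes, its epithelium makes antimicrobial peptides, and surviving cells divide and lay down a provisional matrix. Because RNA was taken from whole biopsies, a change in the number of cells of a type and a change in the RNA per cell cannot be told apart.

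Levels are log2 signals relative to the 75th percentile of each array, so a level of 0 equals that percentile, and a difference of 1 is a doubling. Differences are day 2 minus day 0 and carry the standard error (SE) of a linear model with the cow as a block (n = 3 cows). A gene was called where limma's p-value, adjusted by the Benjamini-Hochberg method over all 33522 probes, was under 0.05. On this rule 367 genes, 2.91% of all genes, differed on day 2, of which 242 (1.92%) rose and 125 (0.992%) fell. The median difference over all genes was 0.01. The smallest called difference was 0.71, and 87 genes rose and 59 fell by at least 2 log2 units. All 242 higher and all 125 lower genes moved the same way in 3 of 3 cows, as did 29.0% (higher) and 26.4% (lower) of all genes.

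Precision is limited by having 3 arrays a day. The share of probes well above background was 71.3 to 76.0% on 11 arrays and 63.2% on the day 2 array of cow 3, which stood apart, and none was saturated. On it the 17 kept markers of smooth muscle and pericytes had a mean level of 3.04, against 0.15 to 0.74 on the other 5 arrays, and the 15 kept epithelial markers had -0.28, against 0.62 to 1.54. Leaving this array out gave 252 called genes, of which 164 were among the 367. Leaving out all arrays of cow 3 gave 380, of which 186 were among the 367. The call also rests on the other cows: 0 genes were called by limma without cow 1 and 0 without cow 2, 0 without the day 0 array of cow 1, 1 without its day 2 array, 23 without the day 0 array of cow 2, 37 without its day 2 array and 96 without the day 0 array of cow 3. At an unadjusted p under 0.05, limma gave 1275 genes without cow 1, 1598 without cow 2 and 2141 without the day 0 array of cow 1. For 10 of the 12 arrays the deposited scanner file is linked to another sample than the column of the deposited value table that it matches, and the table's samples are used here. Under the file links limma called 0 genes (104 at an unadjusted p under 0.05).

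Of 10 kept genes typical of endometrium, 9 were well above background on all 6 arrays, among them the progesterone receptor PGR, the gland regulator FOXA2, the uterine homeobox gene HOXA10 and the epithelial adhesion gene EPCAM. The oestrogen receptor ESR1 was so on 5 of 6 arrays, all but 1 of day 2. None of the 10 was called.

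Beta-defensins are short cationic peptides that epithelia secrete against bacteria, and the cow carries a cluster of closely related copies on chromosome 27. Called probes of this cluster rose by 2.76 to 7.58 on the log2 scale. Because the copies are so alike, the probe sequences decide how far a rise can be given to 1 gene. A stretch of 30 bases of the DEFB7 probe recurs with at least 24 matching bases in 6 of the 17 defensin probes on that chromosome. It is shown 5′ to 3′ as the scanner files give it, with capitals marking bases that differ from the DEFB7 probe:
DEFB7, minus strand, probe at chr27:7372716-7372775: ttcgacagaacgtctaaaatttaaaccaga
EBD (enteric beta-defensin), plus strand, probes at chr27:7569347-7569406 and chr27:7569340-7569399: ttcgacagaacgtctaaaatttaaaccaga
EBD, plus strand, probe at chr27:7569343-7569402: ttcgacagaaAgtctaaaatttaaaccaga
DEFB4A, plus strand, probes at chr27:6892240-6892299 and chr27:7609509-7609568: ttcAacaCaCcgtctaaaatttaaacGaga
Coordinates are those of the array design on the Btau_3.1 build, and gene models of that build are not used here. The second DEFB4A probe is named DEFB5 in the array design. The DEFB7 probe and the first EBD probe share 52 contiguous bases of their 60, so the signals of those probes are not separate measurements.

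The DEFB7 probe had levels of -5.90, -6.88 and -6.85 on day 0 (cows 1, 2 and 3) and -1.72, -1.18 and -3.19 on day 2. On day 0 it was well above background on 1 of 3 arrays. The 3 day 2 values lie above all 3 day 0 values, and the difference was 4.51 ± 0.48 (SE, limma adjusted p = 0.0116). The EBD probe that is brightest over all 12 arrays went from -5.25, -6.09 and -5.74 to -0.47, -0.07 and -2.44. It rose by 4.70 ± 0.61 (limma adjusted p = 0.0141). This probe and that of DEFB7 share 45 contiguous bases, and cow 3 had the smallest rise on both. On the EBD probe with 1 differing base, cow 3 had the largest rise (-4.76 to 0.34). DEFB4A is read on its brightest probe, at chr27:7609509-7609568, which the array design names DEFB5. It had -3.70, -6.47 and -5.96 on day 0, when 2 of 3 arrays were well above background, and 1.28, 1.62 and 2.46 on day 2. The difference was 7.16 ± 0.97 (limma adjusted p = 0.0171), and here cow 1, with the highest day 0 level, had the smallest rise. The probe at chr27:6892240-6892299, which the design names DEFB4A, rose by 6.83 ± 0.97 (limma adjusted p = 0.019).

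All 6 probes with the shared stretch were called, and so were 7 of the 9 kept probes without it. Among the latter, another EBD probe rose by 4.61 ± 0.86, most in cow 3 (-5.19 to 0.35), and another DEFB4A probe by 7.58 ± 1.22. A probe assigned to DEFB5 (chr27:7609356-7609415) rose by 7.38 ± 1.18 (limma adjusted p = 0.0256). It lies beside the brightest DEFB4A probe (chr27:7609509-7609568), so their rises cannot be given to separate genes. Another DEFB7 probe was not well above background on any day 0 array and had -3.69, -3.45 and -3.23 on day 2. DEFB10, whose probe was not well above background on any day 0 array, was at least 5.62-fold higher on day 2. In such bounds the mean of the brighter day's 3 arrays is set against the lowest signal that counts as well above background on the dimmer day's arrays, or the probe's own signal where that is higher. LAP, the lingual antimicrobial peptide, rose by 2.76 ± 0.56 (limma adjusted p = 0.0451). On day 0, 1 of 3 arrays was well above background for LAP and for the DEFB4A probe without the stretch, and 2 of 3 for the DEFB5 probe. TAP, the tracheal antimicrobial peptide, differed by 1.68 ± 0.51 and was not called (limma adjusted p = 0.119).

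Of 28 measured antimicrobial and acute phase genes, 7 rose (1.92% of all genes rose) and 0 fell. Their median difference was 1.30, against 0.01 over all genes, and without the day 2 array of cow 3 it was 1.79 with 6 called. Besides S100A12 and BPI, the 7 that rose were the beta-defensins EBD, DEFB4A, DEFB7, DEFB10 and LAP. The probes of EBD and DEFB7 share 45 contiguous bases, so the 7 are not all separate measurements. S100A12, a calcium-binding alarmin of neutrophils and monocytes, had -2.04, -0.70 and -2.08 on day 0 and 2.78, 2.32 and 1.42 on day 2. All day 2 values lie above all day 0 values, and the rise was 3.78 ± 0.39, or 13.7-fold (limma adjusted p = 0.0116). BPI, which binds bacterial endotoxin, rose by 2.93 ± 0.59 (limma adjusted p = 0.0456). The partner alarmins S100A8 and S100A9 differed by 2.52 and 2.29 and were not called, and haptoglobin (HP), an acute phase protein, was not well above background on any day 0 array and at least 146-fold brighter on day 2, with a limma adjusted p of 0.051. These last 3 genes were picked after their values were seen.

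A set of 15 higher genes spans leukocyte, matrix and biosynthetic roles. Each rose in 3 of 3 cows, was well above background on all 6 arrays and has a gene symbol. Among called genes of this kind they have the smallest p-values. CHI3L1, a secreted chitinase-like glycoprotein of macrophages and injured epithelium, had -6.15, -5.72 and -5.90 on day 0, then -0.39, -0.55 and -0.09. The values within each day lie within 0.5 of each other, and the rise was 5.58 ± 0.63, or 47.9-fold (limma adjusted p = 0.0116). RRM2, the regulated subunit of the enzyme that makes deoxyribonucleotides (probe at chr11:90263212-90263271, Btau_3.1), went from -4.76, -3.05 and -6.04 to 0.54, 0.28 and -1.25. Its rise of 4.47 ± 0.49, or 22.2-fold, held in each cow although the cows started far apart (limma adjusted p = 0.0116). CD44, the receptor for the matrix sugar hyaluronan, had -3.52, -3.79 and -3.52 on day 0 and -0.94, -1.84 and -0.16 on day 2, a rise of 2.63 ± 0.26. LGALS3, a galectin of macrophages and epithelium, had 1.96, 2.19 and 2.46 and then 4.15, 3.72 and 4.59, a rise of 1.95 ± 0.21. Neither gene had overlapping days.

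The other higher genes of this set rose by 1.30 to 2.60, all with a limma adjusted p of 0.0116. They include IL34 (1.30), a ligand of the macrophage growth factor receptor CSF1R, and SPIC (2.09), a transcription factor of iron-recycling macrophages. The set also holds SLC1A5 (2.12), a glutamine transporter, PYCR1 (2.60), a mitochondrial enzyme of proline synthesis, and SFXN3 (1.78), a mitochondrial serine carrier. LMNA (1.86) encodes the nuclear lamins A and C, CAVIN3 (2.23) a coat protein of caveolae, and FADS3 (1.64) a desaturase that acts on sphingoid bases. BHLHE40 (1.70) is a stress- and clock-linked transcription repressor, and PDGFRL (2.58) is a receptor-like gene.

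**Figure D1:**
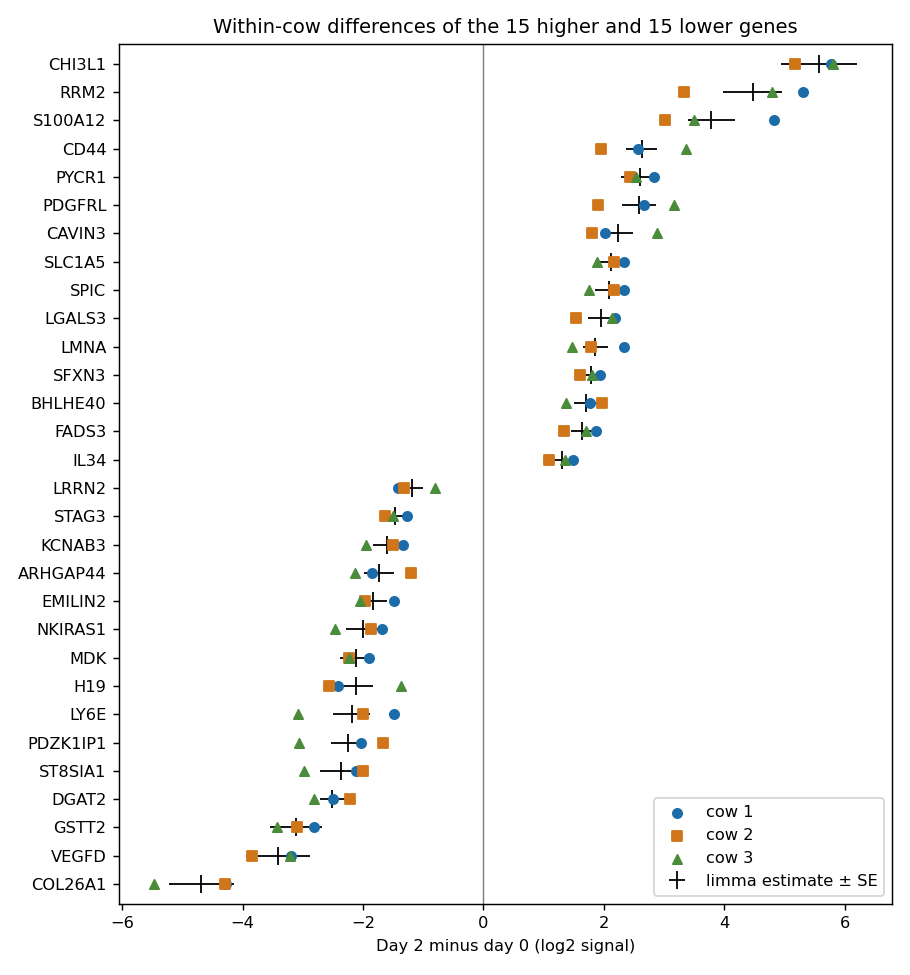
Day 2 minus day 0 (log2 signal, horizontal) for 15 higher and 15 lower genes, 1 row a gene, with a symbol for each of the 3 cows and a bar for the limma estimate ± SE. They have the smallest p-values among called genes well above background on all 6 arrays, with the same direction in 3 of 3 cows. All 3 cows lie on the same side of 0 for every gene shown because the choice required it. The limma estimates run from CHI3L1 (5.58) to COL26A1 (-4.69).

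The 15 genes chosen in the same way among those that fell include lipid, matrix and growth factor genes. DGAT2, which makes triglyceride from diacylglycerol (probe at chr15:54748757-54748816, Btau_3.1), had 0.84, 0.52 and 0.78 on day 0 and -1.66, -1.70 and -2.04 on day 2. Both days are tight and apart, and it fell by 2.51 on the log2 scale (SE 0.21), or 5.72-fold, with the smallest limma adjusted p of the named genes (0.011). COL26A1, a collagen chain of reproductive tissues (chr25:37355146-37355205), had 1.71, 2.35 and 1.77 and then -2.57, -1.95 and -3.70. It fell by 4.69 (SE 0.54), or 25.7-fold (limma adjusted p = 0.0116), and its days do not overlap. MDK (midkine), a heparin-binding growth factor, had 2.73, 2.78 and 2.41 and then 0.82, 0.54 and 0.19, and fell by 2.12 (SE 0.26, limma adjusted p = 0.0122). EMILIN2, a glycoprotein of elastic fibres, had 2.97, 3.34 and 3.48 and then 1.49, 1.36 and 1.44, and fell by 1.83 (SE 0.22, limma adjusted p = 0.0124).

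H19, the imprinted non-coding RNA, had 2.04, 2.40 and 1.74 on day 0 and -0.38, -0.17 and 0.37 on day 2. It fell by 2.12 (SE 0.29, limma adjusted p = 0.0167), least in cow 3. VEGFD, a growth factor for lymphatic vessels, had -1.25, -1.24 and -0.15 and then -4.45, -5.09 and -3.36, and fell by 3.42 (SE 0.53), or 10.7-fold (limma adjusted p = 0.0225). GSTT2, a glutathione transferase, fell by 3.11, ST8SIA1, which makes the ganglioside GD3, by 2.37, and PDZK1IP1, a small epithelial membrane protein, by 2.25. LY6E, a lipid-anchored surface protein, fell by 2.19 and NKIRAS1, a Ras-like inhibitor of NF-kappa-B, by 2.01. ARHGAP44, LRRN2, KCNAB3 and the cohesin subunit STAG3 fell by 1.18 to 1.73. Limma adjusted p-values of these 9 genes ran from 0.0124 to 0.0219.

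Chemokines guide leukocytes into a tissue. Of 27 measured chemokines and receptors that act on monocytes and lymphocytes, 4 rose (1.92% of all genes) and 0 fell, with a median of 1.04; the same number was called without the day 2 array of cow 3. CCL2, the main attractant of monocytes (probe at chr19:15665370-15665429, Btau_3.1), had -1.27, -0.66 and -0.07 on day 0 and 2.88, 3.15 and 2.75 on day 2. It rose by 3.60 ± 0.44, or 12.1-fold (limma adjusted p = 0.0124), with no overlap of the days. CCL3, a macrophage chemokine, rose by 2.41 ± 0.43, most in cow 3 (3.62). CXCL9, which draws activated T cells, rose by 1.70 ± 0.34, although its days overlap because the cows started at different levels.

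CCL19, which guides dendritic cells and naive T cells, was not well above background on any day 0 array (-8.46, -8.78 and -8.55) and was on all day 2 arrays (-0.49, -0.04 and -1.62). It was at least 56.5-fold higher on day 2 (limma adjusted p = 0.0116). That value comes from 1 probe on the minus strand (chr8:80276413-80276472, Btau_3.1), named through a RefSeq accession. The other CCL19 probe lies beside it on the plus strand (chr8:80276557-80276616), was above background on 1 of 3 arrays of each day and differed by 0.03 ± 0.62.

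Of 8 measured neutrophil-attracting chemokines and receptors, 2 rose and 0 fell (1.92% and 0.992% of all genes), with a median of 1.87. Without the day 2 array of cow 3 limma called 0 of them, with a median of 1.61. Without that array limma called 252 genes over all, and gave 2701 at an unadjusted p under 0.05. CXCL8, the main neutrophil attractant, had -6.20, -6.24 and -6.97 on day 0, when 1 of 3 arrays was well above background, and -2.92, -3.09 and -3.61 on day 2. The rise of 3.26 ± 0.59 was alike in the cows (3.28, 3.15 and 3.36; limma adjusted p = 0.0347). PTAFR, the receptor of platelet-activating factor, rose by 1.87 ± 0.36. The neutrophil receptors CXCR1, CXCR2 and CSF3R are not among the kept genes.

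Genes of pattern recognition and of cytokine feedback had few calls. Of 24 receptors and inflammasome genes, 2 rose and 1 fell (1.92% and 0.992% of all genes), with a median of 0.53. In 3 of 3 cows 14 of the 24 were higher and 4 lower, against 29.0% and 26.4% of all genes. IL1RN, the natural antagonist of interleukin 1, had -2.49, -3.70 and -3.46 and then -0.17, -0.14 and 0.36, a rise of 3.23 ± 0.64 (limma adjusted p = 0.043), and PYCARD, the inflammasome adaptor, rose by 1.64 ± 0.31. Without the day 2 array of cow 3, 0 of the 24 rose and 1 fell. TLR10 was not well above background on any day 2 array and was at least 2.01-fold lower. Of 18 NF-kappa-B and feedback genes, 1 rose (1.92% of all genes): OSMR, the receptor of oncostatin M, by 2.05 ± 0.28 (limma adjusted p = 0.018). The median of the 18 was 0.42, and 9 were higher and 1 lower in 3 of 3 cows. The cytokines themselves, IL1B (1.09), TNF (0.42) and IL6 (2.02), were not called and are given because they define the group.

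The phagocyte genes were the list with the highest share called. Of 21 measured genes of the phagocyte oxidase, Fc receptors and phagosome, 6 rose and 0 fell (1.92% and 0.992% of all genes), with a median of 1.37. In 20 of 21 genes all day 2 values lay above all day 0 values, against 14.5% of all genes. CYBB, the catalytic subunit of the oxidase, had -3.28, -3.20 and -3.75 on day 0 and -1.52, -1.69 and -1.20 on day 2, a rise of 1.94 ± 0.27 (limma adjusted p = 0.018). NCF4, a cytosolic subunit of the oxidase, rose by 1.91 ± 0.33, and ITGB2, the shared chain of the leukocyte integrins, by 1.99 ± 0.36. SLC11A1, a metal ion pump of phagosomes, was at least 21.2-fold higher, with day 0 levels of -7.43, -7.79 and -8.52 and day 2 levels of -2.22, -1.62 and -2.56. Without the day 2 array of cow 3 the median was 1.20 and 2 genes were called.

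Markers of macrophages stood higher beside these genes. The mean level of the 15 kept markers was -1.29 to -0.98 on day 0 and -0.00 to 0.28 on day 2, with all 15 well above background on all 6 arrays. CD68, a lysosomal protein of macrophages, rose by 2.45 ± 0.36 (limma adjusted p = 0.0206) and SPIC rose as given above, while the complement chains C1QA, C1QB and C1QC differed by 0.27, 0.17 and -0.00 and were not called. The 10 kept neutrophil markers had a mean of -3.66 to -3.13 on day 0 and -2.91 to -1.86 on day 2. Of these, 6 were well above background on all 6 arrays. S100A12 alone was called, the granule enzymes MPO and ELANE differed by -0.09 and 0.19, and the cathelicidin CATHL5 lay lower on day 2 with no overlap of the days (-2.71 ± 0.58, limma adjusted p = 0.0529). The 19 kept T and NK markers had -2.71 to -2.19 on day 0 and -2.90 to -2.45 on day 2. NKG7, a granule protein of cytotoxic cells, rose by 1.71 ± 0.28, and ZAP70, the T cell receptor kinase, fell by 1.12 (SE 0.20), and neither was called without the day 2 array of cow 3. The part of these markers in the phagocyte and chemokine results was not tested.

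**Figure D2:**
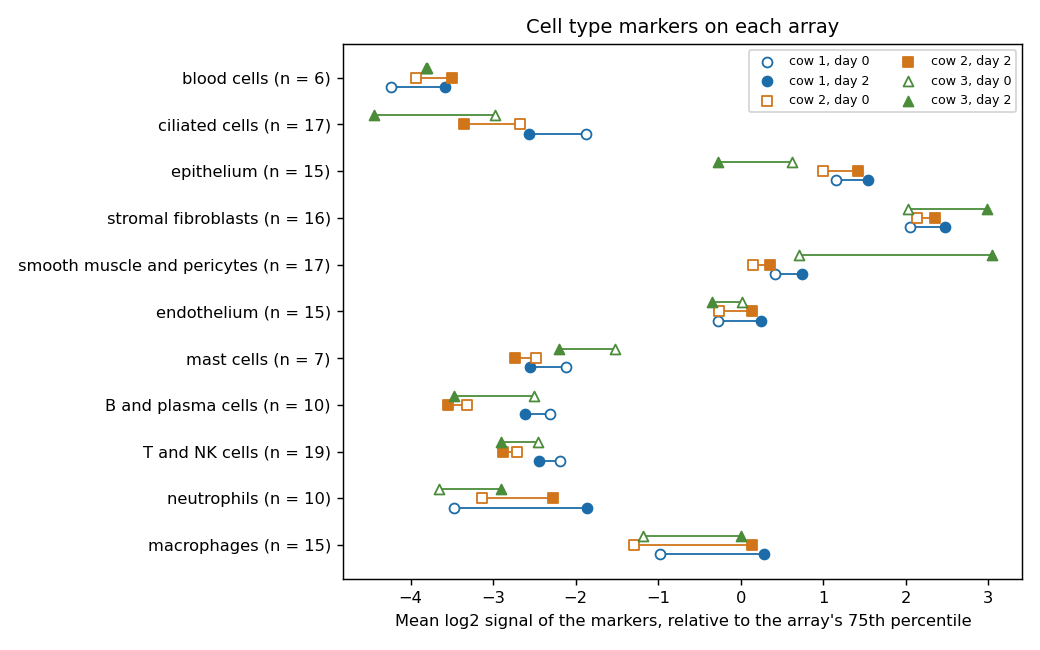
Mean log2 signal of each cell type's kept markers (relative to the array's 75th percentile) on the arrays of day 0 (open) and day 2 (filled), joined within each cow. Macrophage, neutrophil, stromal, smooth muscle and blood cell markers lie higher on day 2 in all 3 cows, those of T and NK, B and plasma, mast and ciliated cells lower, and the day 2 array of cow 3 lies apart for smooth muscle (3.04) and epithelium (-0.28).

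Of 31 complement and coagulation genes, 7 rose and 0 fell (1.92% and 0.992% of all genes). Their median was 0.65 (4 called without the day 2 array of cow 3, median 0.73). The 7 called genes were CFB, C2, CFP, CFI, C6, MASP1 and TFPI. CFB, the protease of the alternative pathway, had 1.63, 0.99 and -0.98 and then 4.03, 5.44 and 2.13, a rise of 3.32 ± 0.69 (limma adjusted p = 0.0483). CFI, which cleaves activated C3 and C4, rose by 3.44 ± 0.72, most in cow 2 (4.87). MASP1, a protease of the lectin pathway, had -6.04, -7.12 and -7.92 and then -1.42, -3.07 and 1.32, a rise of 5.97 ± 1.21 that was widest in cow 3 (9.24). Its probe was well above background on 1 of 3 day 0 arrays, so background limits the size of this rise. C6, of the membrane attack complex, was at least 4.30-fold higher. TFPI, which inhibits tissue factor, rose by 2.42 ± 0.35 (limma adjusted p = 0.0205). The central component C3 differed by 0.65 and was not called.

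Of 24 interferon-response genes 0 were called by limma in either direction, with a median of -0.11 that was 0.11, 0.15 and -0.68 in cows 1, 2 and 3. The members with the highest test values were GBP4, a guanylate-binding protein (difference -2.02 ± 0.53, limma adjusted p = 0.0849), and XAF1 (-0.79 ± 0.30). Of 16 antigen presentation genes 0 were called, with a median of 0.16. Their highest test values belonged to the costimulatory receptors CD40 (1.18 ± 0.31) and CD86 (1.50 ± 0.42), which had limma adjusted p-values of 0.0855 and 0.0997.

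Dividing cells first copy their DNA and then build a spindle, and the genes of these phases were listed apart. Of 53 mitosis and spindle genes 8 rose and 0 fell (1.92% and 0.992% of all genes), with a median of 1.91, and 49 of 53 were higher in 3 of 3 cows, against 29.0% of all genes. The medians in cows 1, 2 and 3 were 2.74, 1.73 and 1.35. Without the day 2 array of cow 3, 17 genes were called and the median was 2.39. ASPM, a spindle pole protein, had -7.53, -4.70 and -8.47 on day 0 and -2.75, -2.34 and -4.63 on day 2, a rise of 3.66 ± 0.64 (limma adjusted p = 0.0325). CCNB2, a mitotic cyclin, had -4.85, -3.38 and -6.22 and then -1.02, -1.03 and -3.01, a rise of 3.13 ± 0.62. The condensin subunit NCAPG rose by 3.00 ± 0.51, the kinetochore gene SPC25 by 2.30 ± 0.40 and the checkpoint kinase BUB1 by 2.16 ± 0.39. Cow 3 had the lowest day 2 level of each of these 5 genes.

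Of 40 genes of DNA replication and nucleotide synthesis 5 rose and 0 fell (1.92% and 0.992% of all genes), with a median of 0.41 (5 called without the day 2 array of cow 3). Besides RRM2, they were the origin-licensing genes CDC6 and ORC1, the thymidine kinase TK1 and the thymidylate kinase DTYMK. CDC6 was not well above background on any day 0 array and was at least 3.15-fold higher, and ORC1 rose by 2.19 ± 0.45. TK1, which salvages thymidine, rose by 1.01 ± 0.17, from 2.52, 2.71 and 2.70 to 3.59, 3.86 and 3.52, and DTYMK, which acts on its product, by 1.19 ± 0.23. The helicase subunits MCM3, MCM4, MCM5, MCM6 and MCM7 lay between 0.04 and 0.69, TYMS at -0.95, and none of these was called. The difference between the 2 lists was not tested. Of 30 arrest and p53 target genes 0 were called by limma, with a median of 0.04. The highest test value was that of E2F1, a transcription factor of S-phase entry, at 2.30 ± 0.51 (limma adjusted p = 0.0565). Of 25 genes of ribosome production 0 were called, and MYC, which drives them, differed by 0.98 ± 0.29 (limma adjusted p = 0.114).

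**Figure D3:**
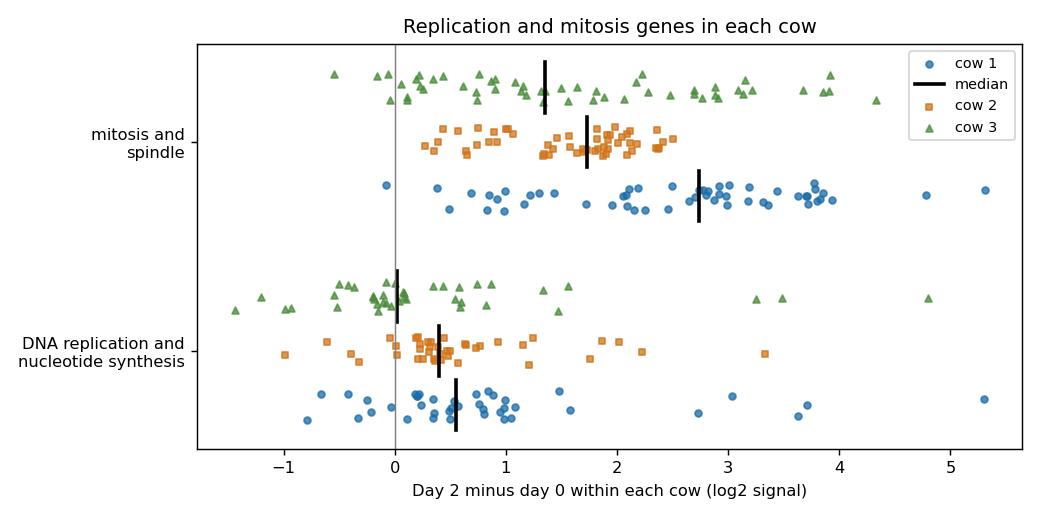
Day 2 minus day 0 within each cow (log2 signal) for the 53 mitosis and 40 replication genes, 1 symbol a gene and cow, with a bar at each cow's median. Mitosis medians are 2.74, 1.73 and 1.35 in cows 1, 2 and 3, and replication medians 0.55, 0.40 and 0.02.

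Cholesterol is made from acetate through mevalonate and squalene. Of 23 genes of cholesterol synthesis and uptake 2 rose and 0 fell (1.92% and 0.992% of all genes). In 3 of 3 cows 20 of the 23 were higher (29.0% of all genes), and the median was 0.91. SQLE, the epoxidase of the pathway, had 1.44, 1.55 and 1.98 on day 0 and 3.24, 3.43 and 2.97 on day 2, a rise of 1.56 ± 0.25 (limma adjusted p = 0.027). MVK, mevalonate kinase, rose by 1.06 ± 0.20. Of 29 fatty acid and triglyceride genes 2 rose and 1 fell (1.92% and 0.992% of all genes). They were the lipid carrier FABP5 (2.52 ± 0.51 on its brightest probe, 1.05 and 0.73 on its other probes, which were not called), the elongase ELOVL1 (0.77 ± 0.16) and, downwards, DGAT2. DGAT1, the other enzyme of that step, differed by 0.01. Of 29 glycolysis and hypoxia genes 2 rose (1.92% of all genes), PFKP (1.05 ± 0.17) and PGAM1 (0.73 ± 0.14). Without the day 2 array of cow 3 limma called 0 of those 29, with a median of 0.47 in place of 0.26.

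Genes of oxidative stress and of iodine handling are of interest because the antiseptic is an oxidant that carries iodine. Of 24 measured 2 rose and 0 fell (1.92% and 0.992% of all genes), with a median of 0.13. MT2A, a metallothionein that binds metals, had -2.03, -2.77 and -1.90 and then 0.16, 0.24 and -0.12, a rise of 2.33 ± 0.35 (limma adjusted p = 0.0219). GPX4, which reduces lipid peroxides, rose by 1.07 ± 0.21. NQO1, GCLC and TXNRD1, usual targets of the oxidant sensor NFE2L2, differed by 0.68, -1.14 and -0.11 and were not called. Another 10 genes of this list had probes too dim to be kept. Of 29 chaperone and unfolded protein response genes 4 rose (1.92% of all genes): TRIB3 (2.19 ± 0.35), ATF6 (1.07 ± 0.20), PDIA4 (0.98 ± 0.20) and HSPB1 (0.80 ± 0.16). Without the day 2 array of cow 3, 1 was called. The heat shock gene HSPA1A and the endoplasmic chaperone HSPA5 both differed by 0.15.

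The next list holds the collagens, their cross-linking enzymes and the glycoproteins around them. Of its 44 measured genes 5 rose and 0 fell (1.92% and 0.992% of all genes), with a median of 0.50. Without the day 2 array of cow 3 limma called 0 of them (median 0.40). FN1 (fibronectin) had 2.03, 2.16 and 1.91 and then 3.55, 3.69 and 4.08, a rise of 1.74 ± 0.33. CTHRC1, a secreted protein of repairing matrix, had -2.69, -3.33 and -3.28 and then 0.08, -0.58 and -0.34, a rise of 2.82 ± 0.46 (limma adjusted p = 0.027). The collagen chaperone SERPINH1 rose by 1.32 ± 0.21, the cross-linking enzyme LOXL4 by 2.23 ± 0.44 and SPARC, a collagen-binding glycoprotein, by 1.12 ± 0.21 on its brightest probe. Of the other 5 SPARC probes, 2 were called (1.13 and 1.84), and 3 were not (1.81, 0.27 and 0.16). The chains COL1A1, COL1A2 and COL3A1 differed by 0.05, 0.37 and 0.44. The smooth muscle level of the same array is given above, and its part in these calls was not tested.

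Of 32 matrix proteases and inhibitors 3 rose and 0 fell, against 1.92% and 0.992% of all genes (2 rose without the day 2 array of cow 3). TIMP1, the metalloproteinase inhibitor, rose by 2.16 ± 0.27, from 0.96, 1.30 and 1.16 to 3.91, 3.17 and 2.82 (limma adjusted p = 0.0124). MMP12, macrophage elastase, was at least 11.8-fold higher (limma adjusted p = 0.0493). MMP3 was at least 26.8-fold brighter on day 2, on 2 of 3 arrays well above background, but was not called (limma adjusted p = 0.17).

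Of 30 genes of epithelial identity and junctions 0 were called by limma, with a median of -0.18 and medians of 0.10, 0.28 and -0.97 in cows 1, 2 and 3. The members with the highest test values were the junction gene TJP1 (-0.53 ± 0.20) and the transcription factor GRHL1 (-0.92 ± 0.39). Without the day 2 array of cow 3 the median was 0.31 and 1 gene was called. Of 27 wound repair genes 2 rose (1.92% of all genes), CD44 and SFN. SFN, an epithelial 14-3-3 protein, rose by 1.14 ± 0.19 on its brightest probe (limma adjusted p = 0.0271), while its other probe, well above background on all 6 arrays, differed by 0.10 ± 0.37 (limma adjusted p = 0.907). The keratins KRT17 and KRT5, with differences of 2.60 and 1.68, were not called. The 17 kept markers of ciliated cells had a median of -1.12, and 16 of 17 were lower in 3 of 3 cows, against 26.4% of all genes. None was called: the highest test values were those of CCDC40, an assembly factor of cilia (-1.35 ± 0.33, limma adjusted p = 0.0742), and the dynein gene DNAI1 (-1.16 ± 0.33).

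Among 29 genes of ion and water transport 1 fell and 1 rose (0.992% and 1.92% of all genes). SCNN1B, the beta subunit of the epithelial sodium channel, had -0.94, -2.81 and -2.43 on day 0 and -6.03, -7.03 and -7.61 on day 2, when 1 of 3 arrays was well above background. It fell by 4.83 (SE 0.58, limma adjusted p = 0.0116), while the alpha subunit SCNN1A differed by -0.41 and was not called, and the gamma subunit SCNN1G was well above background on 1 of the 6 arrays. ATP12A, a proton and potassium pump, was at least 2.31-fold higher. Of 31 gland and cycle-dependent genes, SPP1 rose and DGAT2 fell. SPP1 (osteopontin), a secreted adhesion protein of glands and macrophages, had -2.53, -1.99 and -4.17 and then 0.86, 1.89 and 4.20, a rise of 5.21 ± 1.05 (limma adjusted p = 0.0445) that in cow 3 (8.37) exceeded those in cows 1 and 2 (3.39 and 3.88). The uterine serpin SERPINA14 differed by 5.64 ± 1.62 and was not called.

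The signalling lists held 1 or 2 calls each, beside 1.92% (higher) and 0.992% (lower) of all genes. Of 32 TGF-beta family genes, GDF15, a stress-induced cytokine, was at least 4.28-fold higher, and INHA, the inhibin alpha subunit, fell by 0.98 (SE 0.16, limma adjusted p = 0.0283). Of 32 Wnt genes 0 rose and 1 fell: LGR5, a receptor of R-spondins and a stem cell marker in other epithelia, by 1.89 (SE 0.33). It was well above background on 1 of 3 day 2 arrays and was not called without the day 2 array of cow 3. Of 26 immediate early genes, FOSL1, a partner of JUN, was at least 6.32-fold higher, and CCN1, a matricellular protein, rose by 1.90 ± 0.40. FOS and JUN differed by 0.79 and -0.60. Of 32 vessel genes PECAM1, an endothelial adhesion protein, rose by 1.13 ± 0.23, and of 20 prostaglandin genes TBXAS1, thromboxane synthase, rose by 1.59 ± 0.31. PTGS2, the inducible cyclooxygenase, differed by 0.27. Of 32 lysosome and clearance genes, STAB1, a scavenger receptor, rose by 1.24 ± 0.22 and CTSZ, a cathepsin, by 0.81 ± 0.16, and without the day 2 array of cow 3 limma called 0. Without that array the vessel genes also had 0 calls, and the immediate early, oxidative stress and fatty acid lists each had 1 higher gene.

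**Figure D4:**
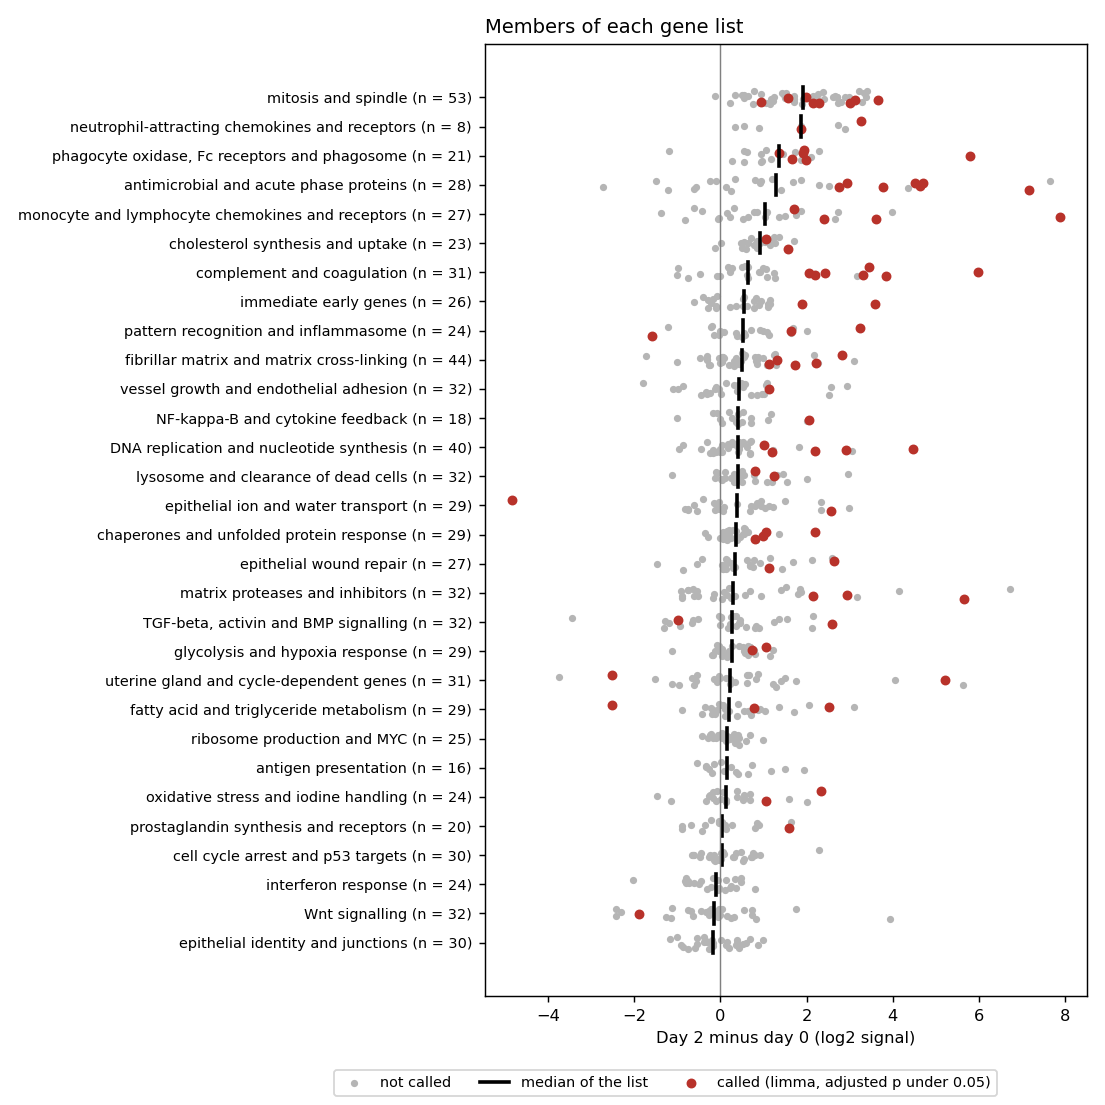
Difference of each measured member of the 30 gene lists (day 2 minus day 0, log2 signal), called genes in red and the list's median as a bar. Medians run from 1.91 (mitosis and spindle) to -0.18 (epithelial identity and junctions), against 0.01 over all genes.

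Among markers of other tissue parts, DPT, a matrix protein of fibroblasts, rose by 3.29 ± 0.56, from -0.29, -0.81 and -0.22 to 2.57, 2.52 and 3.48 (limma adjusted p = 0.0303). The 16 kept stromal markers had a mean of 2.03 to 2.14 on day 0 and 2.36 to 2.99 on day 2. ACTG2, a smooth muscle actin, rose by 2.73 ± 0.50, by 2.07, 1.94 and 4.19 in cows 1, 2 and 3. The median of the 17 smooth muscle markers was 0.97, and 0.34 without the day 2 array of cow 3, when neither ACTG2 nor DPT was called. Markers of B and plasma cells (10 kept), mast cells (7) and blood cells (6) had no call. The plasma cell genes JCHAIN (-1.67 ± 0.39) and PRDM1 (-1.53 ± 0.35), the mast cell genes TPSB2 (-1.33 ± 0.61) and GATA2 (-0.47 ± 0.13) and the blood cell genes HBA (1.05 ± 0.47) and PF4 (1.31 ± 0.86) had the highest test values there.

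Some genes that fell went from a clear signal on day 0 to none well above background on day 2. KCNH6, a potassium channel, had -1.13, -1.92 and -0.52 on day 0 and -6.14, -6.54 and -6.14 on day 2, and was at least 28.0-fold lower (limma adjusted p = 0.0116). PPP1R1C, a phosphatase inhibitor, was at least 19.3-fold lower, TEX29 9.48-fold, the collagen chain COL28A1 8.23-fold and CNGA1, a cyclic nucleotide-gated channel, 5.98-fold. BSP3 was at least 5.06-fold lower, ZNF483 5.01-fold and KCNV1, a silent potassium channel subunit, 4.12-fold. Of the 125 lower genes 22 and of the 242 higher genes 14 were of this kind, with no array of one of the days well above background. C29H11orf86 was at least 27.3-fold higher on day 2, with levels of 0.65, -0.94 and -5.01 on the day 2 arrays of cows 1, 2 and 3.

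Other probes of the same gene give a second reading. Of the 367 called genes 212 had at least 1 other kept probe, 327 probes in all. Of these, 144 were called in the same direction, 0 in the opposite direction, and 9 had a difference of the opposite sign. On all 6 arrays 222 of the 327 were well above background; 108 of them were called, and 24, of 18 genes, showed under 50% of the brightest probe's difference, FABP5, SPARC, SFN and TUBB2B among them. The 9 probes of opposite sign belong to ABLIM1, CDC25B, COL2A1, FLVCR2, GAPDHS, HSPB1, RTN4RL2, SLC25A3 and STAG3. COL2A1, the cartilage collagen, fell by 4.71 (SE 0.89) on its brightest probe and fell by 4.75 (SE 0.82) on a probe that overlaps it, while the third, well above background on all 6 arrays, differed by 0.07 ± 0.46. STAG3 fell by 1.47 on its brightest probe, fell by 1.37 on another and differed by 0.04 ± 0.19 on the third. CDC25B, a mitotic phosphatase, rose by 1.56, 1.56 and 1.44 on 3 probes, and its probe of opposite sign was well above background on 1 of the 6 arrays. RTN4RL2 fell by 2.88, and its other probe was well above background on 2 of the 6 arrays. ABLIM1 fell by 0.82, and FLVCR2, GAPDHS and SLC25A3 rose by 1.13, 1.09 and 0.71.

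The later days were measured on the same 3 cows against the same day 0 arrays, so their values are set beside those of day 2 without a test. The 242 higher genes had a median difference of 1.63 on day 2, 1.67 on day 7 and 0.90 on day 14, and the 125 lower genes -1.90, -1.81 and -1.15. S100A12 stood at 3.78, 2.54 and 1.24 above day 0 on days 2, 7 and 14, CCL2 at 3.60, 2.92 and 0.88, CHI3L1 at 5.58, 5.64 and 1.58, and DGAT2 at -2.51, -3.04 and -2.91. COL26A1 differed from day 0 by -4.69, -1.41 and 0.70, MDK by -2.12, -0.96 and 0.48, and SCNN1B by -4.83, -1.92 and -0.90. SPP1 stood at 5.21 on day 2 and 0.86 on day 7. CES4A, a carboxylesterase, rose by 3.49 ± 0.65 on day 2 and was not well above background on any day 7 array. MASP1 (5.97 and 7.87), LOXL4 (2.23 and 3.83) and the zinc and iron transporter SLC39A14 (1.12 and 2.60) stood further from day 0 on day 7 than on day 2, as did, below day 0, PDZK1IP1 (-2.25 and -4.16), DGKI (-4.28 and -6.31) and PACSIN1 (-1.11 and -2.84).

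**Figure D5:**
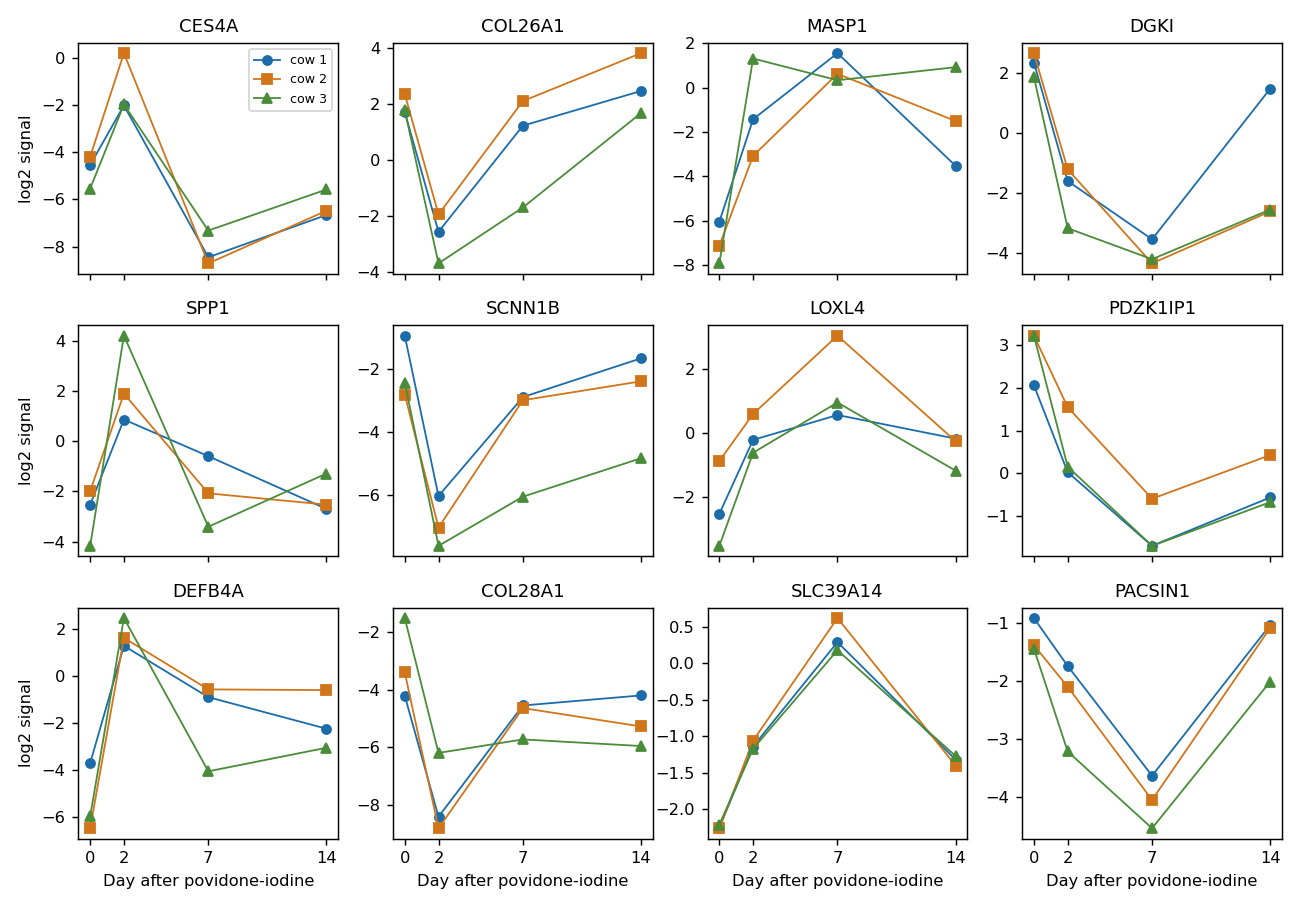
log2 signal of 12 genes on days 0, 2, 7 and 14, 1 line a cow, chosen for the size of their change between days 2 and 7. The first column holds genes higher on day 2 that lay nearer to or below day 0 on day 7 (SPP1 5.21 and 0.86), the second genes lower on day 2 that lay nearer to day 0 on day 7 (COL26A1 -4.69 and -1.41), and the others genes further from day 0 on day 7 (MASP1 5.97 and 7.87, DGKI -4.28 and -6.31).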

How the data were processed

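Total RNA of endometrial biopsies was labelled with cyanine-3 and hybridised to 12 single-colour Agilent bovine arrays, per the labels' protocols. The deposited intensity values are the processed signals of Agilent Feature Extraction 11.5.1.1 per the file headers, 10.5.1.1 per the submitters' processing notes, and the background flags come from the same deposited files. The authors' deposited log2 value table was used to assign arrays to samples: each of its columns matched 1 scanner file (r = 1.0, next best at most 0.519), and for 2 of 12 arrays the file link gives the table's sample. By that reading each slide holds 1 cow and each position 1 day, so cow and slide, and day and position, cannot be told apart.

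From these, log2 intensity minus the array's 75th percentile was computed. Left out were 1417 control spots, 53 of 43653 probes with outlier flags, and probes well above background on fewer than 3 arrays. Symbols come from RefSeq (ARS-UCD2.0, names only): 20562 probes through their own accession, 711 through another, 10735 by a current and 372 by an older symbol, and 11220 kept the file's name. A gene stands by its brightest probe. limma 3.58.1 (R 4.3.3) fitted day with cow as block on all 12 arrays (6 residual and 2.33 prior degrees of freedom), and was tested on simulated data. The design text says the same animals were sampled on all days. Deviations from the day means of the same cow's day 0 and day 2 arrays correlated at 0.412 to 0.493, those of different cows at -0.333 to -0.021. Taking deviations from the mean of 3 arrays by itself pushes the values of different cows below 0. Each cow also lies on its own slide, so these values cannot tell cow from slide.

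Members and gene lists were chosen with earlier results of these data known. Named are the 15 genes of smallest p in each direction, at most 5 called members of each list by size (or the 2 of highest test value), genes with probes of opposite sign, the 5 with the widest range among cows, and the 8 largest bounds in each direction. Other names given by value were picked after values were seen, and some genes that the rule names are not reported here. The alternatives were no replicate block, only the 6 arrays, filters, quantile and normexp scaling, the value table, array weights, trend and robust options, the mean of probes, the file links and left-out arrays or cows.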

Additional observations from a re-analysis of the deposited data

How the results depend on the processing

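With the deposited value table limma called 366 genes, all among the 367. That table matches the scaled signals used here once each probe is centred (r = 1.0), so it is no separate test of the processing. With the mean of all probes of a symbol limma called 358 (298 of them among the 367), with quantile scaling 316 (298 shared) and with the stricter filter 459 (359 shared). Counts in each direction stayed within 1.5 times of 242 and 125 in these settings. Array weights gave 1227 higher and 806 lower genes, with a fit that stopped before it converged, trend and robust options 367 higher genes, and normexp 190 lower genes. With no filter on dim probes 141 genes were higher, and with only the 6 arrays of days 0 and 2, 120 higher and 70 lower. Of the 190 genes called on those 6 arrays alone, 106 were among the 367. Without the replicate block, that is without pairing by cow, 116 genes were higher and 64 lower, 175 of them among the 367. Leaving out 1 array or cow gave 0 to 270 higher and 0 to 110 lower genes, the lowest without cow 1, cow 2 or the day 0 array of cow 1. None of the 367 calls had the other sign in any of these alternatives. Under the file links limma called 0 genes higher and 0 lower, and 278 of the 367 had the other sign. The cause was not tested beyond the match to the table. Of the named genes, 25 called ones, RRM2, SPIC, DGAT2 and VEGFD among them, kept their sign under the file links but were not called. Another 15 that were not called in the main fit did not count as reversed. The next sentence lists only the named genes that reversed under the file links, 90 called and 12 not called in the main fit. There, the named genes above day 0 in the main values had differences of CD44 -0.83, S100A12 -0.43, LGALS3 -0.01, PDGFRL -0.35, SLC1A5 -0.30, IL34 -0.02, CHI3L1 -2.01, CAVIN3 -0.28, LMNA -0.28, BHLHE40 -0.87, SFXN3 -0.21, FADS3 -0.44, PYCR1 -0.16, PYCARD -0.61, IL1RN -1.01, OSMR -0.58, CXCL8 -1.36, PTAFR -0.54, CCL2 -0.43, CCL3 -0.40, CCL19 -1.43, CXCL9 -1.56, CYBB -0.29, NCF4 -0.48, ITGB2 -0.72, SLC11A1 -0.30, CTSZ -0.18, EBD -1.62, DEFB4A -1.25, DEFB7 -1.41, DEFB10 -0.35, CFB -0.74, MASP1 -2.60, TFPI -1.06, CD86 -0.31, CD40 -0.44, ORC1 -0.08, CDKN2C -0.40, MVK -0.11, SQLE -0.09, ELOVL1 -0.06, FABP5 -0.63, PFKP -0.22, PGAM1 -0.27, GPX4 -0.04, MT2A -1.05, PDIA4 -0.44, ATF6 -0.10, TRIB3 -0.05, HSPB1 -0.24, MYC -0.15, MRTO4 -0.13, ATP12A -0.37, SPP1 -0.18, TBXAS1 -0.28, SERPINH1 -0.43, CTHRC1 -0.25, MMP12 -1.54, TIMP1 -0.91, GDF15 -1.02, PECAM1 -0.08, FOSL1 -1.47, CD68 -0.40, NKG7 -0.49, ACTG2 -0.65, DPT -0.22, PF4 -0.55, VIM -0.09, SERPINA14 -2.16, FLVCR2 -0.02, GAPDHS -0.46, SLC25A3 -0.14, ASB2 -1.39, C29H11orf86 -1.53, and those below it COL26A1 0.84, MDK 0.42, EMILIN2 0.09, PDZK1IP1 1.27, STAG3 0.71, H19 0.72, GSTT2 0.02, NKIRAS1 0.68, ARHGAP44 0.50, KCNAB3 0.19, ST8SIA1 0.31, TLR10 0.34, XAF1 0.16, INHA 0.75, ZAP70 1.12, GATA2 0.08, RAB25 0.79, ABLIM1 0.06, COL2A1 0.44, RTN4RL2 0.07, KCNH6 1.19, PPP1R1C 2.01, TEX29 0.79, COL28A1 0.25, CNGA1 0.08, BSP3 0.45, ZNF483 0.49, KCNV1 0.75. Where under 3 arrays of a day were well above background, signal over background limits the value.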

Other observations

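Gene families defined by symbol, picked after their values were seen, add a few patterns to the lists above and are given as values. Of 14 measured tubulin genes, which encode the subunits of microtubules, 7 rose and 0 fell (1.92% and 0.992% of all genes): TUBB6 by 2.18 ± 0.30, TUBB2B by 2.00 ± 0.29 (0.63 ± 0.37 and not called on another probe), TUBB by 1.57 ± 0.21, TUBA3E by 1.25 ± 0.21, TUBA4A by 1.22 ± 0.20, TUBA1A by 1.07 ± 0.22 and TUBA1B by 0.82 ± 0.15. Tubulin genes are near-identical in their coding parts, so a probe can read more than 1 of them. Of 33 collagen chain genes 0 rose and 5 fell (1.92% and 0.992% of all genes). COL28A1 was at least 8.23-fold lower, and COL2A1, COL26A1, COL23A1 and COL9A3 had differences from -4.71 to -2.41. Of 54 potassium channel subunits 0 rose and 4 fell (1.92% and 0.992% of all genes), KCNH6, KCNV1, KCNJ8 (-1.62 ± 0.28) and KCNAB3. Of 26 integrin subunits 2 rose and 1 fell (1.92% and 0.992% of all genes). ITGB3, of platelets and osteoclasts, was at least 3.18-fold higher, ITGB2 rose and ITGA9 fell by 0.96 (SE 0.18). Among 13 cathepsins 3 rose and 0 fell (1.92% and 0.992% of all genes). CTSC, which activates granule proteases, rose by 1.75 ± 0.34, and CTSA and CTSZ by 0.90 and 0.81. Among 24 serpins 3 rose and 0 fell (1.92% and 0.992% of all genes), SERPINA11 by 3.08 ± 0.56.

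The genes in which the cows differed most were high in cow 3 alone. RYR3, a calcium release channel of muscle, differed by 0.29, 0.06 and 8.05 in cows 1, 2 and 3, RIMS1 by -0.57, -0.12 and 6.62, PTGER3, a prostaglandin E receptor, by -0.19, -1.75 and 4.62, ASB2 by 0.85, -0.30 and 5.92, and PI16 by 0.54, 0.03 and 5.87. None of these 5 genes was called. The smooth muscle level of that array (3.04) is the value that stands beside them, and its part was not tested.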
